A study of Arabidopsis thaliana with 9 samples.

Results

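The 39 genes described here lie in the nucleus and are linked to gene expression and complex assembly in the plastid. They were chosen by name. Among them are PTAC genes (proteins found in the plastid transcriptionally active chromosome) with WHY1, SIG genes (sigma factors) and the phage-type RNA polymerase gene RPOTp. The rest are HCF genes (high chlorophyll fluorescence mutants) and CRR genes (chlororespiratory reduction mutants). The PTAC and HCF families are not complete here: other genes of both were on the array and are counted in the related lists below. Each locus was matched to 1 probe, so 39 of the 25665 loci on the array were followed, and all 39 were among the 21043 genes tested. Of the 39, 38 were well above background on all 9 arrays, and CRR23 was so on 2 of 3 arrays at 0 h and on all arrays later. The name of the group fits only some of them: 29 were sorted under the nucleoid, transcription, RNA processing or translation, and 10 are assembly factors or subunits of photosynthetic complexes. For PTAC genes the sorting follows the name and does not establish a role in these steps.

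Whole seedlings of Arabidopsis thaliana Col-0, 3 weeks old, were compared after silver nitrate had been added to 0.1 mM: at once (0 h), after 48 h and after 72 h. They had grown for 1 week on agar and 2 weeks in shaken liquid medium with 1% sucrose, at 22 °C under continuous light. There were 3 arrays per time, described as independent experiments with different plants, so p-values measure the spread between these experiments. All groups shared the genotype, the medium and the liquid culture. No plants without silver were kept to 48 h or 72 h here, so the effect of silver and that of longer culture cannot be told apart.

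Plastids have their own genome, and most of its photosynthesis genes are read by a bacterial-type RNA polymerase whose core subunits are plastid genes (the plastid-encoded polymerase, PEP). Nuclear genes supply the rest: sigma factors that let PEP find promoters, PEP-associated proteins (PAPs) without which it works poorly, and a separate phage-type polymerase that reads housekeeping genes. Other nuclear proteins, many of them pentatricopeptide repeat (PPR) proteins, cut, edit and stabilise plastid transcripts or start their translation, and assembly factors then build the photosystems, the cytochrome complex and the NDH complex of cyclic electron flow.

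Green tissue markers were bright on all arrays, and all 6 were called lower at 72 h and 4 of 6 at 48 h. Their summed signal, in multiples of the 75th percentile of each array, was 434 to 470 at 0 h, 184 to 251 at 48 h and 188 to 205 at 72 h. For 8 root markers the sum was 59.3 to 75.03 at 0 h, 57.4 to 63.6 at 48 h and 46.6 to 55.4 at 72 h, with 3 called lower at 48 h, and 4 lower and 1 higher at 72 h. The root sum rests mainly on the brightest marker, PYK10 (AT3G09260), whose log2 difference from 0 h was -0.03 at 48 h and -0.29 at 72 h. Counted by gene, 7 of 8 root markers were lower at each time, 4 of them by more than 2-fold. Their median log2 difference at 72 h was -2.35, against -1.51 for the green tissue markers. Among those 4, PRP3 fell to background by 72 h, so the size of its fall is uncertain. In whole seedlings, fewer green cells and less RNA per cell cannot be told apart. The 75th percentile of the signal was 1612 to 3732 intensity units, lowest on replicate 3 of 0 h (1612) and of 48 h (1997), which shared slide 3. Replicate 3 of 72 h lay alone on slide 4, while slides 1 and 2 each held 1 array of every time.

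Transcripts of most of these genes were lower after silver, by about the same amount at 48 h and 72 h. The families were picked with the changes from 0 h known, so these differences are given as a description, without a test. At 48 h, 38 of 39 members had a lower mean than at 0 h, 28 of them by more than 2-fold, and the median log2 difference was -1.40 (all genes tested, 0.0152). At 72 h, 37 of 39 were lower, 29 by more than 2-fold, with a median of -1.45 (all genes, 0.00719). In the fit across all genes 32 members were called lower and 0 higher at each time. The background was 15.8% of genes called lower and 14.2% higher at 48 h (30.0% in either direction), and 19.4% lower and 16.9% higher at 72 h (36.2%), and nothing is read from this contrast because it was known when the families were picked. The arrays of 48 h lay wholly below those of 0 h for 33 members and those of 72 h for 34, against 21.7% and 25.1% of all genes, and wholly above for 0 members at either time, against 21.4% and 24.8%. Without slides 3 and 4, which hold replicate 3, 20 members were called lower at 48 h and 25 at 72 h, and of all genes 8.28% and 12%. With the authors' deposited value table, whose scaling differs, 12.4% of all genes were called lower and 18.3% higher at 48 h, and 14.5% lower and 27.1% higher at 72 h.

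**Figure D1:**
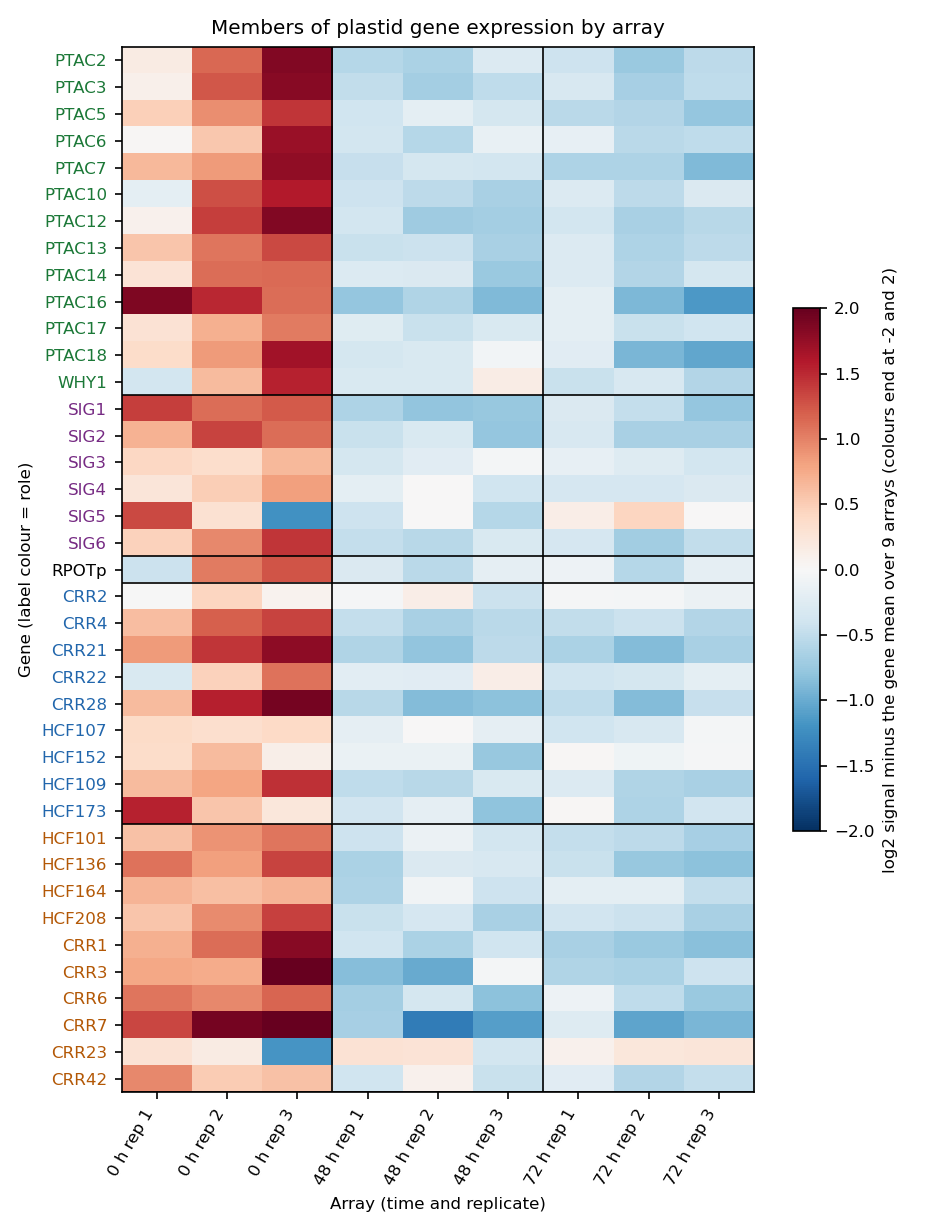
Log2 signal of each member on each of the 9 arrays, minus the mean of that gene over the 9 arrays, with arrays in columns by time and genes in rows by role. Red in the 0 h columns and blue later marks a lower level after silver. SIG5, CRR2 and CRR23 do not show it, and 0 h replicate 1 is paler than 0 h replicate 3 for most PTAC genes. For WHY1, RPOTp, CRR22 and PTAC10, 0 h replicate 1 lies below the gene mean and is blue.

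The first role group held 12 PTAC genes and WHY1 (AT1G14410), the last encoding a single-stranded DNA-binding protein of the nucleoid. Their log2 differences from 0 h ran from -2.25 to -0.76 at 48 h and from -2.26 to -1.02 at 72 h, with medians of -1.42 and -1.56. Of these 13 genes, 11 were called lower at 48 h and 12 at 72 h. PTAC12 (AT2G34640), also called HEMERA, encodes a PAP that also acts in phytochrome signalling. In the order of replicates 1, 2 and 3, its log2 signal relative to the 75th percentile was 1.09, 2.38 and 2.85 at 0 h, 0.64, 0.29 and 0.32 at 48 h, and 0.64, 0.35 and 0.44 at 72 h. All later arrays were below all 0 h arrays, and the 0 h arrays were far apart. Its log2 difference from 0 h was -1.69 ± 0.39 (standard error, as for all differences below; 3 arrays per time) at 48 h and -1.63 ± 0.39 at 72 h. The 72 h calls of PTAC12 and PTAC3 ended with slide as a block, and both genes lost their calls at both times without slides 3 and 4, as did PTAC2 and PTAC14.

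The other PAP genes among the members were PTAC2 (AT1G74850, a PPR protein), PTAC3 (AT3G04260), PTAC6 (AT1G21600), PTAC7 (AT5G24314), PTAC10 (AT3G48500) and PTAC14 (AT4G20130). Together with PTAC12 these 7 genes had a median difference of -1.49 at 48 h and -1.56 at 72 h. PTAC3, PTAC7 and PTAC14 were lower by 3.07-fold, 2.81-fold and 2.41-fold at 48 h, and by 2.94-fold, 3.48-fold and 2.38-fold at 72 h. PTAC6 was 2.18-fold lower at 48 h and 2.24-fold lower at 72 h. At 48 h it was not called except under 5 alternative ways of processing. Among them was leaving out its lowest 0 h array, replicate 1 (-1.50), which was bound to widen the difference. PTAC2 read -0.58, 0.42 and 1.12 at 0 h, then -1.31, -1.38 and -1.01 at 48 h and -1.16, -1.48 and -1.25 at 72 h. As with PTAC12, the later arrays sat within 0.5 of each other and the 0 h arrays did not. PTAC10, with an S1-type RNA-binding domain, read 1.49, 2.97 and 3.27 at 0 h and 1.04 to 1.42 on the 6 later arrays. For this gene 0 h replicate 1 lay just above the later arrays, and its difference of -1.42 ± 0.40 at 48 h lost its call without 0 h replicate 2 or 3 or any 1 array of 48 h. At 72 h PTAC6 lost its call in 11 of the 19 alternative ways of processing ("alternatives" below) and PTAC10 in 12.

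PTAC16 (AT3G46780), an abundant protein of the transcriptionally active chromosome, showed the largest difference in this group. It read 4.66, 4.30 and 3.91 at 0 h, 2.01, 2.18 and 1.91 at 48 h, and 2.58, 1.88 and 1.63 at 72 h. These groups were far from overlapping, and here the 0 h replicate with the lowest PTAC12 signal had the highest value. The gene was 4.77-fold lower at 48 h (-2.25 ± 0.27) and 4.78-fold lower at 72 h (-2.26 ± 0.27). PTAC13 (AT3G09210), whose protein resembles the bacterial elongation factor NusG, was lower by 2.81-fold at 48 h and 2.73-fold at 72 h. PTAC5 (AT4G13670), PTAC17 (AT1G80480) and PTAC18 (AT2G32180), the last with a cupin domain, were lower by 2.02-fold to 3.22-fold over both times. PTAC18 lost its 48 h call in 6 alternatives, among them without 0 h replicate 2 or 3 or any 1 array of 48 h, and PTAC17 without slides 3 and 4.

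WHY1 stood apart within the group because its time groups overlapped. It read -0.34, 0.67 and 1.58 at 0 h, -0.27, -0.27 and 0.19 at 48 h, and -0.41, -0.29 and -0.55 at 72 h. At 0 h replicate 1 was at the level of the later arrays and replicates 2 and 3 above them. The difference was -0.76 ± 0.41 at 48 h and -1.05 ± 0.41 at 72 h, not called at either time. Without 0 h replicate 1 it was called at both (-1.24 and -1.54). Leaving out the lowest 0 h array was bound to widen the difference, so nothing is read from these calls.

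Of the 6 sigma factor genes, 5 were called lower at each time and SIG5 (AT5G24120) at neither. SIG1 (AT1G64860) read 2.11, 1.84 and 1.94 at 0 h, 0.10, -0.08 and -0.04 at 48 h, and 0.44, 0.24 and -0.06 at 72 h. Its arrays agreed closely within each time, and it was 3.91-fold lower at 48 h (-1.97 ± 0.15) and 3.37-fold lower at 72 h (-1.75 ± 0.15). SIG2 (AT1G08540), which directs PEP to transfer RNA genes, was lower by 1.56 ± 0.20 (48 h) and 1.60 ± 0.20 (72 h) on the log2 scale, and SIG6 (AT2G36990), a general factor of young seedlings, by 1.40 ± 0.23 and 1.46 ± 0.23. SIG3 (AT3G53920, -0.68 ± 0.14 and -0.74 ± 0.14) and SIG4 (AT5G13730, -0.71 ± 0.17 and -0.84 ± 0.17) differed by less than 2-fold, although all their later arrays lay below those of 0 h. The call of SIG4 at 48 h ended without 48 h replicate 3 and without slides 3 and 4.

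SIG5 is the sigma factor of the light-responsive psbD promoter and is known as a stress-induced member of the family. It read -0.16, -1.18 and -2.70 at 0 h, -1.90, -1.47 and -2.05 at 48 h, and -1.35, -1.06 and -1.47 at 72 h. The 0 h arrays spanned 2.54 on the log2 scale and enclosed all later values, so neither -0.46 ± 0.53 at 48 h nor 0.05 ± 0.53 at 72 h exceeded the spread. Without 0 h replicate 3 it was called lower at 48 h (-1.14), and without 0 h replicate 1 the sign turned (0.13). At 72 h the sign was negative under 5 alternatives, with no call.

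RPOTp (AT2G24120), the phage-type polymerase of plastids, read -1.28, 0.20 and 0.41 at 0 h, -1.14, -1.38 and -1.03 at 48 h, and -0.94, -1.41 and -1.02 at 72 h. As for WHY1, 0 h replicate 1 was among the later arrays and replicates 2 and 3 were above them. The difference of -0.96 ± 0.40 at 48 h and -0.90 ± 0.40 at 72 h was not called. It was called at both times without 0 h replicate 1 (-1.49 and -1.43), the lowest 0 h array, whose omission was bound to widen it.

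**Figure D2:**
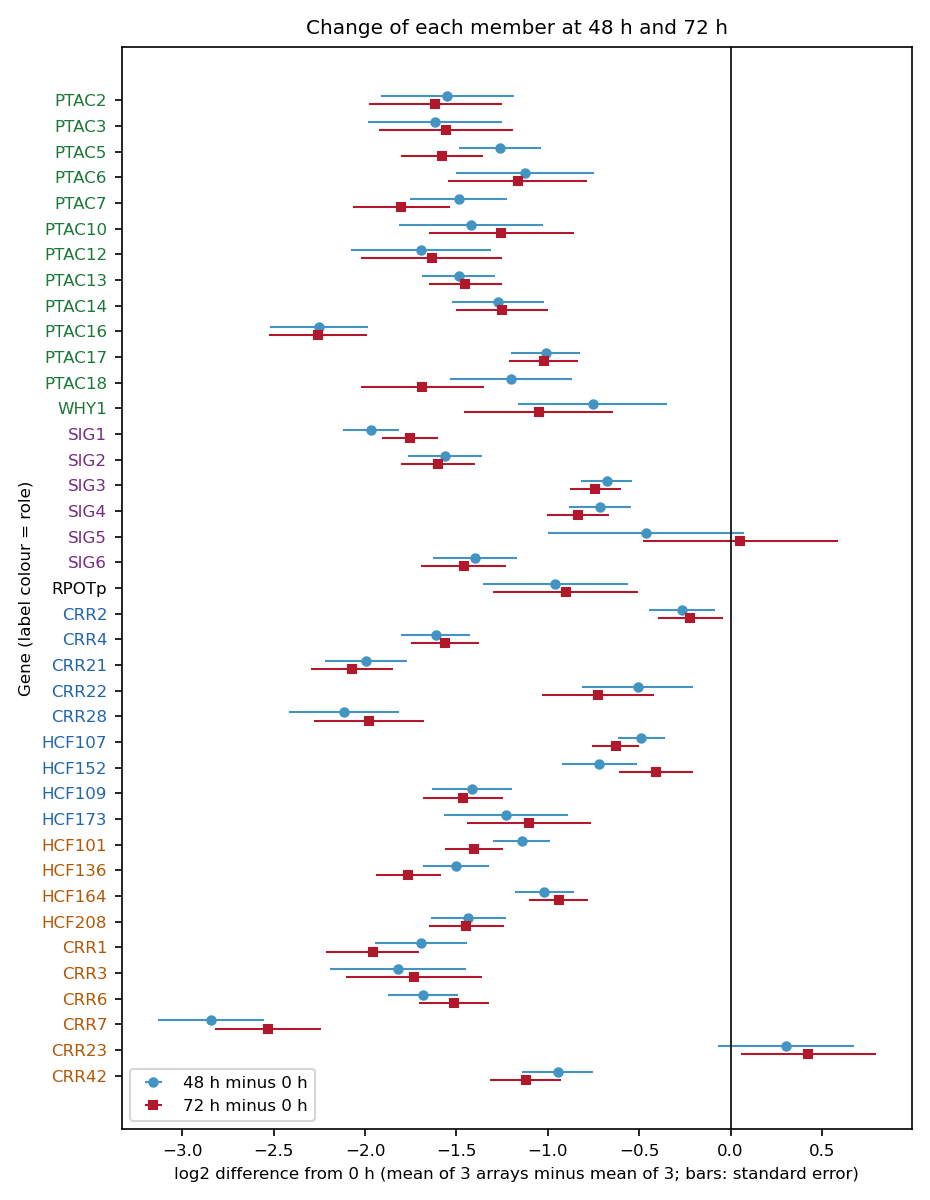
Log2 difference from 0 h of each member at 48 h (circles) and 72 h (squares), with standard errors as bars and genes in rows by role. CRR7 has the lowest values at both times (-2.85 and -2.53), and SIG5, CRR2 and CRR23 lie nearest to 0 or above it.

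Among 9 genes of RNA processing and translation, 7 were called lower at 48 h and 6 at 72 h. The editing factor gene CRR21 (AT5G55740), whose PPR protein acts on the ndhD transcript, read -0.30, 0.26 and 0.63 at 0 h, -1.76, -1.95 and -1.69 at 48 h, and -1.79, -2.03 and -1.81 at 72 h. The groups were separated by more than 1 on the log2 scale, and the gene was 3.99-fold lower at 48 h and 4.21-fold lower at 72 h. CRR28 (AT1G59720), another editing factor, was 4.33-fold lower (-2.11 ± 0.30) and 3.94-fold lower (-1.98 ± 0.30), and CRR4 (AT2G45350), which edits the ndhD start codon, 3.06-fold and 2.95-fold lower. By contrast CRR22 (AT1G11290), an editing factor of the same PPR type, had differences of -0.51 ± 0.30 and -0.73 ± 0.30 that were not called, with 0 h replicate 1 at -3.46 and the later arrays at -3.56 to -3.02. It was called at both times without 0 h replicate 1 (-0.86 and -1.08), its lowest 0 h array, whose omission was bound to widen the difference. CRR2 (AT3G46790), needed for cutting between rps7 and ndhB, read -0.25, 0.19 and -0.17 at 0 h, -0.26, -0.10 and -0.67 at 48 h, and -0.26, -0.28 and -0.35 at 72 h. Its differences of -0.27 ± 0.18 and -0.22 ± 0.18 were not called, although the 72 h arrays lay just below those of 0 h.

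PTAC16 and CRR2 are direct neighbours in the annotation, and their differences at 72 h were -2.26 and -0.22. HCF208 (AT5G52110) and CRR1 (AT5G52100), separated by 1 annotated gene, were lower by 1.45 ± 0.21 and 1.96 ± 0.25 at that time. These 2 pairs were the only members within 1 gene of each other.

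HCF109 (AT5G36170), the plastid release factor gene, was lower by 2.67-fold at 48 h (-1.42 ± 0.22) and 2.76-fold at 72 h (-1.47 ± 0.22). HCF173 (AT1G16720), needed to translate psbA, read 1.59, 0.61 and 0.28 at 0 h, -0.33, -0.13 and -0.76 at 48 h, and 0.07, -0.58 and -0.34 at 72 h. Its 0 h arrays were spread in the opposite order to those of the PAP genes, with replicate 1 highest. The differences were -1.23 ± 0.34 and -1.10 ± 0.34, and the call ended in 4 of 19 alternatives at 48 h and in 6 at 72 h. Single arrays whose omission ended it were replicates 1 and 3 of 48 h for the first, and replicates 1 and 2 of 0 h and 2 and 3 of 72 h for the second. HCF107 (AT3G17040), which protects psbH transcripts, had 0 h arrays within 0.06 of each other and was lower by 0.49 ± 0.13 at 48 h and 0.63 ± 0.13 at 72 h. HCF152 (AT3G09650), a PPR protein of petB processing, differed by -0.72 ± 0.20 at 48 h and -0.41 ± 0.20 at 72 h, and the second was not called. The 48 h calls of HCF152 and HCF107 each ended in 5 alternatives, in common without 0 h replicate 2, without 48 h replicate 3, without slides 3 and 4 and in the deposited table. HCF107 also lost it without 48 h replicate 1 and HCF152 without 0 h replicate 1, and the 72 h call of HCF107 ended in the deposited table.

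The 10 assembly factors and subunits included the largest difference of all members. CRR7 (AT5G39210), needed to build the stromal arm of the NDH complex, read 1.03, 1.60 and 1.81 at 0 h, -0.97, -1.70 and -1.42 at 48 h, and -0.57, -1.36 and -1.22 at 72 h. The groups were separated by more than 1 on the log2 scale, and it was 7.19-fold lower at 48 h (-2.85 ± 0.29) and 5.77-fold lower at 72 h (-2.53 ± 0.29). Other NDH factors were lower by less: CRR1 by 1.70 ± 0.25 and 1.96 ± 0.25, CRR3 (AT2G01590) by 1.82 ± 0.37 and 1.73 ± 0.37, CRR6 (AT2G47910) by 1.68 ± 0.19 and 1.51 ± 0.19, and CRR42 (AT5G20935) by 0.95 ± 0.19 and 1.12 ± 0.19 on the log2 scale at 48 h and 72 h. CRR42 lost its 48 h call without slides 3 and 4.

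HCF136 (AT5G23120), which starts the assembly of the photosystem II reaction centre, was 2.83-fold lower at 48 h and 3.39-fold lower at 72 h. HCF101 (AT3G24430), an iron-sulfur carrier for photosystem I, was lower by 1.14 ± 0.16 and 1.40 ± 0.16, and HCF208, which helps attach haem to the cytochrome complex, by 1.44 ± 0.21 and 1.45 ± 0.21. HCF164 (AT4G37200), a thioredoxin-like protein of the same complex, had 0 h values of 2.43, 2.36 and 2.42 and was lower by 1.02 ± 0.16 and 0.94 ± 0.16. CRR23 (AT1G70760), the NDH subunit NdhL, was the only member of this group not called. It read -6.36, -6.48 and -7.84 at 0 h and -7.02 to -6.37 later, near the lowest signal that counted as well above background (-7.97 to -7.02 by array), so its differences of 0.30 ± 0.37 and 0.43 ± 0.37 carry little information. Their sign turned with normexp background correction and without 0 h replicate 3.

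From 48 h to 72 h no member was called in limma's test, and 0 of 39 had an unadjusted p under 0.05. This contrast was not used to pick the families, though it shares their arrays. Over all genes the percentage called was 0, with 1929 genes at an unadjusted p under 0.05. The members' differences ran from -0.49 (PTAC18) to 0.52 (SIG5), with a median of -0.0101 and standard errors of 0.13 to 0.53. These errors use a spread pooled over all 9 arrays, so the 0 h arrays enter them too. The members' median standard deviation was 0.471 at 0 h, against 0.179 at 48 h and 0.163 at 72 h. For most members the pooled error is therefore wide for this contrast, and the lack of calls does not show equal levels. The 72 h arrays lay wholly below those of 48 h for 5 members (PTAC5, PTAC7, WHY1, HCF101 and CRR1) and wholly above for 2 (SIG5 and HCF152), against 9.50% and 8.08% of all genes.

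For the members, the 0 h arrays differed among themselves more than the later arrays did, and unevenly from gene to gene. The 3 values of a gene spanned more than 1 on the log2 scale for 16 of 39 members at 0 h, for 0 at 48 h and for 0 at 72 h, against 18.5%, 9.06% and 9.02% of all genes. The median standard deviation of a member was 0.471 at 0 h, 0.179 at 48 h and 0.163 at 72 h (all genes 0.267, 0.199 and 0.161). Replicate 3 of 0 h exceeded replicate 1 by more than 1 for 13 of 39 members (33.3%), against 7.37% of all genes. In related lists it did so for 9 of 18 other nucleoid and PEP genes, 15 of 33 other plastid RNA processing genes and 8 of 35 plastid translation genes, and 33 of those 35 were higher on replicate 3 by some amount. It also did so for 4 of 18 genes of mitochondrial gene expression, 1 of 15 NDH subunit genes and 0 of 11 other thylakoid assembly genes. Members with such an excess were PTAC2, PTAC3, PTAC6, PTAC7, PTAC10, PTAC12, PTAC18, WHY1, RPOTp, CRR22, CRR28, CRR1 and CRR3. The 7 PAP genes had a median excess of 1.71, while SIG1 (-0.17), HCF107 (0.01), HCF164 (-0.01), CRR6 (0.10) and CRR2 (0.08) hardly differed. PTAC16 (-0.75), HCF173 (-1.31), CRR23 (-1.47) and SIG5 (-2.54) differed the other way. With 1 array per replicate these are descriptions.

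**Figure D3:**
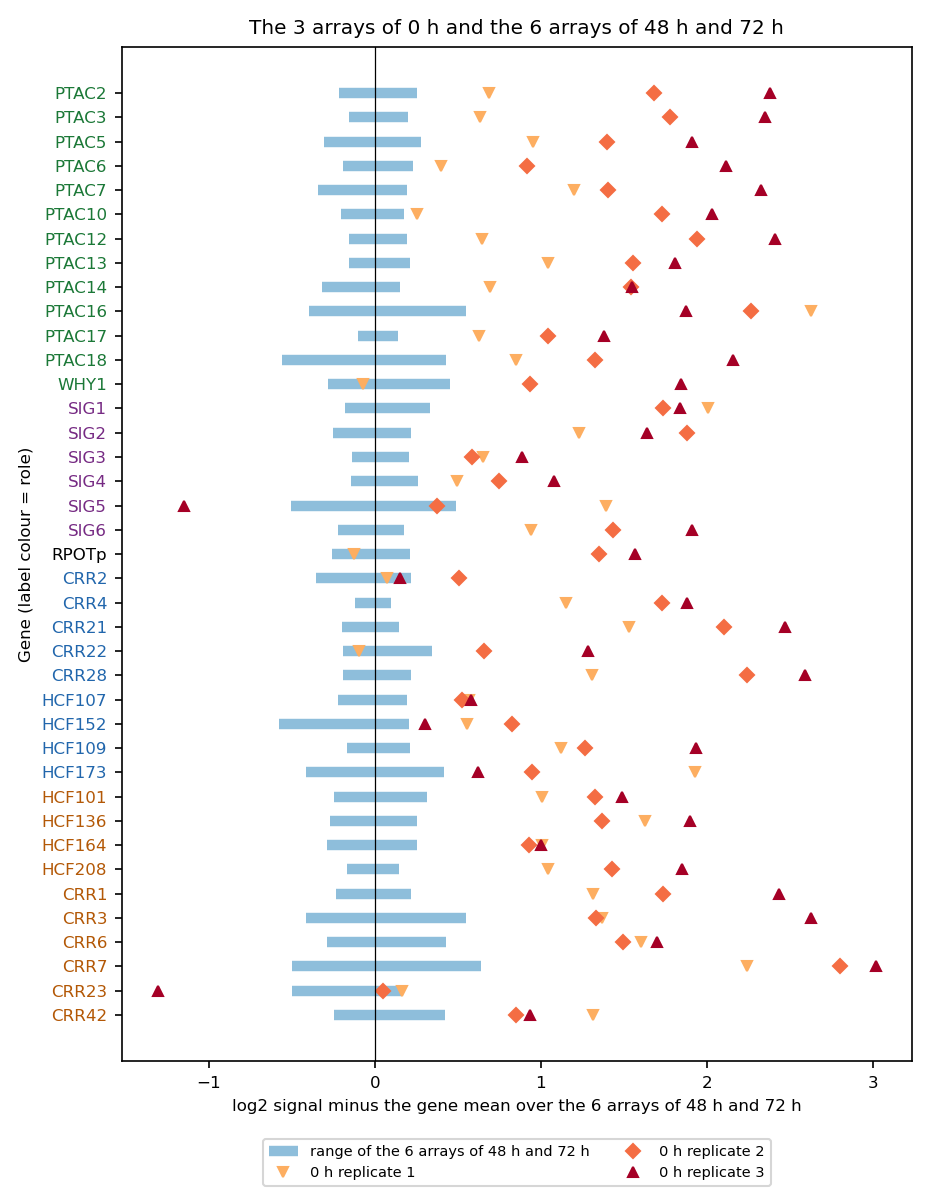
Log2 signal of each member on the 3 arrays of 0 h (symbols by replicate) and the range of its 6 arrays of 48 h and 72 h (bars), both relative to the mean of those 6 arrays. For 35 of 39 members 0 h replicate 1 lies above all 6 later arrays, and for most PTAC genes it is the closest of the 0 h arrays to them.

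Several measured values stood beside this spread. On slides 1 and 3 the same 2 replicates of 48 h differed by a median of -0.0449 over the members (from -0.66 to 0.81), and the 75th percentile was 1997 on replicate 3 and 3456 on replicate 1. The summed green tissue markers varied little at 0 h (434 to 470), although 1 of the 6 markers spanned more than 1 on the log2 scale there. The differences from 0 h varied by slide in the same order: within slide 1 the median of the members was -0.99 at 48 h and -0.88 at 72 h, within slide 2 it was -1.28 and -1.47, and within slide 3 it was -1.78 at 48 h. Within slide 1, 36 of 39 members were lower at 48 h and 38 at 72 h. The part of slide and signal strength in the spread was not tested.

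Genes outside the members are given with the adjusted p over all genes from limma, in lists chosen with earlier results known. Most genes named here and below were picked by their change in the same contrasts. Their calls and adjusted p-values are therefore a description, not an independent test. Among 18 other genes of the nucleoid and of PEP, 10 were called lower and 0 higher at 48 h, and 12 lower and 1 higher at 72 h, with medians of -0.91 and -1.02. Of 5 PAP genes that are not among the members, 3 were called lower at 48 h. With the replicate number as a block, which pairs the arrays of 0 h and 48 h by slide, 9 of the 18 were called lower at 48 h, MRL7-L being lost (adjusted p = 0.0718) and named after its values were seen. PAP11/MurE (AT1G63680) fell by 1.41 ± 0.27 at 48 h (adjusted p = 0.00498) and PAP9/FSD2 (AT5G51100), an iron superoxide dismutase gene, by 1.16 ± 0.30 (adjusted p = 0.0188). PAP10/TRXz (AT3G06730), a thioredoxin gene, fell by 1.32 ± 0.39 (adjusted p = 0.0334), a call that held under 10 of 19 alternatives. PAP6/FLN1 (AT3G54090) differed by -1.30 ± 0.45 (adjusted p = 0.0610) and PAP4/FSD3 (AT5G23310) by -1.33 ± 0.53 (adjusted p = 0.0935). These genes, chosen after their values were seen except FSD3, were likewise higher on 0 h replicate 3 than on replicate 1, by 1.14 (MurE) to 2.54 (FSD3). FSD3 read 0.54, 1.99 and 3.08 at 0 h and 0.14 to 0.90 later, and its fall at 72 h (-1.61 ± 0.53, adjusted p = 0.0421) held under 7 of 19 alternatives. FLN2 (AT1G69200), a relative of FLN1, fell at 72 h by 2.03 ± 0.59 (adjusted p = 0.0270; held under 12 of 19 alternatives). MTERF6 (AT4G38160) fell by 1.98 ± 0.24 and CURT1B, also PTAC8 (AT2G46820), by 1.87 ± 0.17 at 72 h, under all 19 alternatives each. PTAC4 (AT1G65260, -1.04 ± 0.13) and PTAC15 (AT5G54180, -0.95 ± 0.29) were also called lower at 72 h. PTAC9 (AT4G20010) was not called, at 0.00297 ± 0.21 (adjusted p = 0.993). PTAC4, PTAC9 and PTAC15 were named after their values were seen. PRIN2 (AT1G10522), named after its values were seen as the only called rise, read -8.58 to -6.87 at 0 h and -6.84 to -6.11 later. These values are near the lowest signal that counted as well above background (-7.97 to -7.02 by array), which 1 of its 3 arrays of 0 h reached. It passed the filter through its later arrays. Its rise of 1.29 ± 0.37 at 72 h (adjusted p = 0.0263, held under 10 of 18 alternatives) therefore carries little information.

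Of the genes of plastid translation, all 35 measured, for ribosomal proteins and translation factors, were called lower at 48 h and at 72 h, with medians of -1.77 and -1.90. The ribosomal protein gene PRPS6 (AT1G64510) fell by 2.35 ± 0.34 at 72 h (adjusted p = 0.000988), PRPL4 (AT1G07320) by 2.19 ± 0.25, PRPL21 (AT1G35680) by 2.16 ± 0.26 and PRPL13 (AT1G78630) by 2.14 ± 0.27. Of 33 other genes of plastid RNA processing, 29 were called lower and 0 higher at each time, with medians of -1.22 and -1.26. They included the RNA-binding protein genes CSP41B (AT1G09340, -2.39 ± 0.18 at 72 h, adjusted p = 5.51e-05), CSP41A (AT3G63140, -2.08 ± 0.18) and CP29A (AT3G53460, -1.93 ± 0.42), and the PPR gene PGR3 (AT4G31850, -2.10 ± 0.23). The call of CP29A at 72 h ended when slides 3 and 4 were left out or slide was a blocking factor (adjusted p up to 0.0933).

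The nuclear subunit genes of the NDH complex, which many CRR proteins serve, were called lower for 15 of 15 genes at both times (medians -1.75 and -1.99). PNSL3 (AT3G01440) fell by 3.06 ± 0.29 at 72 h (adjusted p = 0.000135), PNSB3 (AT3G16250) by 2.77 ± 0.22, PNSL2 (AT1G14150) by 2.56 ± 0.23 and NDHN (AT5G58260) by 2.28 ± 0.20. Unlike the PAP genes these subunit genes showed no common shift between 0 h replicates 3 and 1 (median -0.14, positive in 6 of 15), a difference between lists that was not tested. Of 11 other thylakoid assembly genes, 10 were called lower at each time, among them the cytochrome assembly genes CCB4 (AT1G59840, -1.99 ± 0.21 at 72 h, adjusted p = 0.000218), CCB3 (AT5G36120, -1.86 ± 0.25) and CCB1 (AT3G26710, -1.58 ± 0.15). HCF244 (AT4G35250), a partner of HCF173 in psbA translation, fell by 1.88 ± 0.16 at 72 h.

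**Figure D4:**
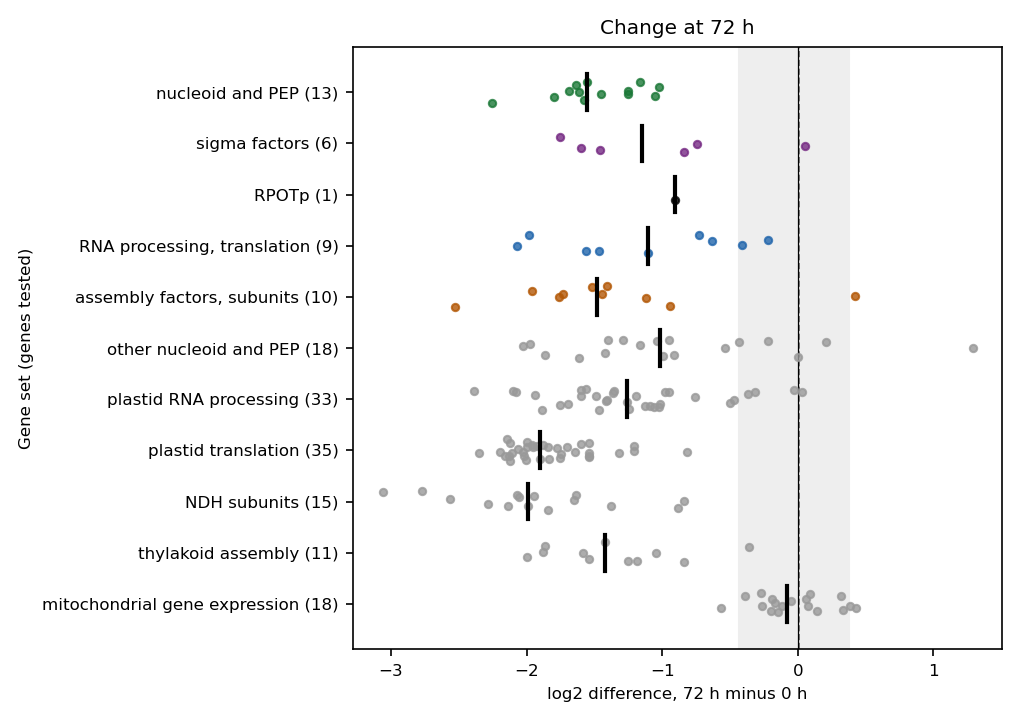
Log2 difference between 72 h and 0 h for each gene (points) in the role groups of the members (colours) and in related lists (grey), with list medians as black bars and the interquartile range of all genes tested as a shaded band around their median (dashed). The medians of the plastid lists lie left of the band, and mitochondrial gene expression has a median of -0.08.

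Genes that run gene expression in mitochondria were measured as a list beside the plastid genes. Of 18, 0 were called at 48 h (3 at an unadjusted p under 0.05; with the replicate block 1 was, nMAT1 at -0.39, adjusted p = 0.0460), and 1 was called lower and 1 higher at 72 h, with medians of -0.0709 and -0.0819. At 72 h the splicing gene nMAT1 (AT1G30010) fell by 0.56 ± 0.17 (adjusted p = 0.0299; held under 13 of 19 alternatives) and OTP43 (AT1G74900), a PPR gene, rose by 0.34 ± 0.11 (adjusted p = 0.0378; held under 4 of 19 alternatives). RPOTm (AT1G68990), the mitochondrial relative of RPOTp, differed by -0.12 at 72 h (adjusted p = 0.713) and was chosen after its value was seen. Whether plastid and mitochondrial lists differ was not tested.

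Of 6 regulators that link light, plastid state and nuclear genes, 2 were called lower at 48 h and 1 at 72 h. GNC (AT5G56860), a GATA factor that promotes chloroplast development, read 0.09, 0.04 and -0.71 at 0 h and -3.08 to -1.74 later. It fell by 2.19 ± 0.34 at 48 h (adjusted p = 0.00185) and 1.91 ± 0.34 at 72 h (adjusted p = 0.00286), under all 19 alternatives. GUN1 (AT2G31400), a plastid PPR protein of retrograde signalling, fell by 0.57 ± 0.18 at 48 h (adjusted p = 0.0458; held under 6 of 19 alternatives). The chloroplast development factors GLK1 (AT2G20570, 0.52 ± 0.24 at 48 h, adjusted p = 0.142) and GLK2 (AT5G44190, -0.69 ± 0.29, adjusted p = 0.110), the light factor HY5 (AT5G11260, -0.41 ± 0.19, adjusted p = 0.142) and CGA1 (AT4G26150, -0.83 ± 0.44, adjusted p = 0.200), a relative of GNC, were not called at 48 h or 72 h. With the replicate block GLK1 was called higher at 48 h (adjusted p = 0.0478).

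**Figure D5:**
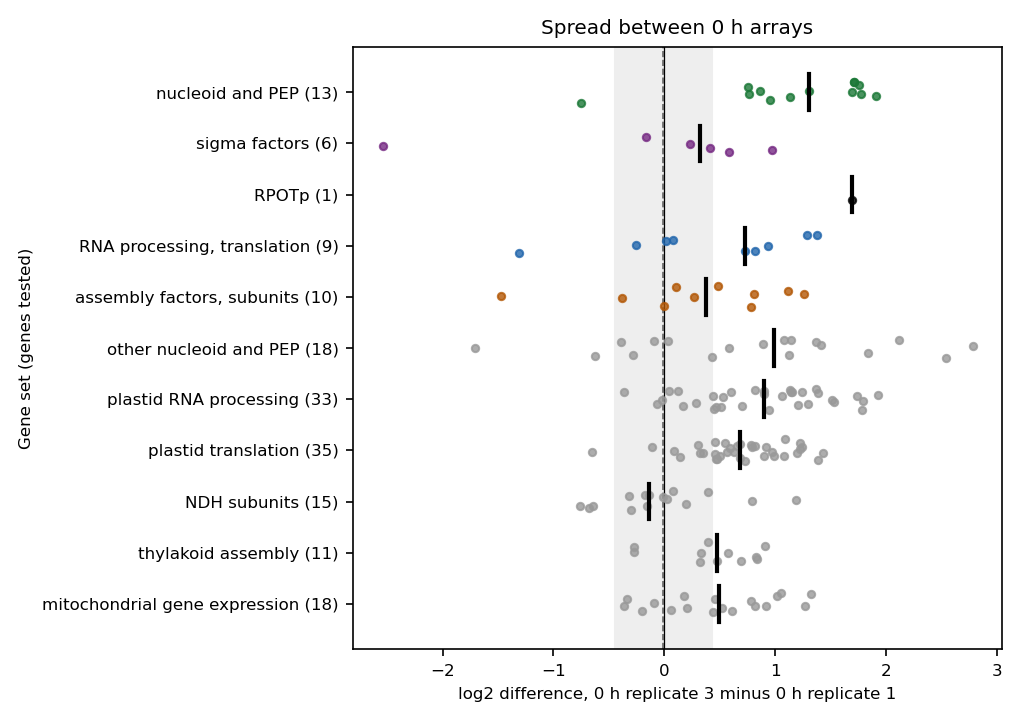
Log2 difference between replicates 3 and 1 of 0 h for each gene (points) in the role groups of the members (colours) and in related lists (grey), with medians as black bars and the interquartile range of all genes as a shaded band. The PTAC group has a median of 1.31, the NDH subunit list -0.14 and mitochondrial gene expression 0.49.

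Green tissue markers outside the members fell unequally. CA1 (AT3G01500, carbonic anhydrase) fell by 5.45 ± 0.37 at 72 h (adjusted p = 4.44e-05) and RCA (AT2G39730, Rubisco activase) by 1.76 ± 0.19, whereas RBCS1A (AT1G67090, Rubisco small subunit) fell by 0.51 ± 0.14 (adjusted p = 0.0242; held under 11 of 19 alternatives). With the replicate block RBCS1A and the root marker RHD6 were also called lower at 48 h (adjusted p = 0.0493 and 0.0176). The part of fewer green cells in the lower levels of the members was not tested.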

How the data were processed

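RNA of whole Col-0 seedlings was labelled with the dye Cy3 and hybridised to Agilent arrays of 1 colour. Per the file headers, the authors quantified spots with version 9.5.3.1 of Agilent Feature Extraction. As deposited, its processed signal is an intensity from which the authors' scanner software had subtracted the background, with no scaling between arrays. The deposited value table holds a ratio on a linear scale, and its scaling per array and reference level per probe are not given in the sources used here. Its log2 differences between arrays were set against those of the processed signal after the median shift of each array was removed. They then matched within 0.05 for 100% of 22644 probes, so the direction of the table is known, and it served as an alternative. The deposited files also hold other columns with flags for spots above background, saturated spots and outliers.

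Control spots and 80 outlier spots were left out, and no spot was saturated. Each processed signal was divided by the 75th percentile of its array and converted to log2. Probes had to be flagged well above background in all 3 replicates of 1 or more times, and the brightest probe stood for its locus, which left 21043 genes. The model of limma 3.58.1 in R 4.3.3 had 1 mean per time over 9 arrays (6 residual and 2.54 prior degrees of freedom), with two-sided tests and Benjamini-Hochberg adjustment over all genes. Calls were made below an adjusted p of 0.05. Slides were read from the deposited files, and slide and replicate number were tried as blocks. The alternatives also changed background correction, scaling, the filter and the probe rule, and left out each array in turn. The number of arrays limits the precision.

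The members and the lists were chosen with earlier results of these data known. All 39 members could be named. Of each other list up to 4 called genes with the largest change at 72 h were named, and all genes of the marker and regulator lists could be named. Genes outside this rule are said to have been chosen after their values were seen. All 39 members matched the RefSeq gene table of TAIR10.1. Genes encoded in the plastid itself were not analysed here. The array files name no genome build, so no positions are given. Arrays of 0 h and 48 h with the same replicate number shared a slide and deviated together from their group means (correlations across genes of 0.255, 0.317 and 0.401), so the numbers pair these samples. For 0 h and 72 h the correlations were 0.209, -0.00955 and 0.116. There replicates 1 and 2 shared a slide and replicate 3 did not, so pairing by number is uncertain. The fit had no block, and results that a block changes at 48 h are given with both.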

Additional observations from a re-analysis of the deposited data

How the results depend on the processing

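The median difference of the members was negative at 48 h and 72 h under every alternative run. At 48 h it moved to -1.14 without slides 3 and 4 and to -1.15 without 0 h replicate 3, and at 72 h to -1.17 without slides 3 and 4. The cause was not tested. Leaving out 1 array at a time gave medians of -1.56 to -1.15 at 48 h, -1.65 to -1.22 at 72 h and -0.0669 to 0.0292 between 48 h and 72 h. The count of members called lower was then 26 to 35 at 48 h and 29 to 34 at 72 h, and 0 between the later times. Of all genes, 12.2% to 17.3% were then called lower at 48 h and 15% to 21.4% at 72 h. Without slides 3 and 4, which leaves fewer arrays, 20 members were called lower at 48 h, all among the 32, while the share of all genes called lower fell to 8.28%. Under every alternative 20 members kept their call at 48 h and 24 at 72 h. The share of all genes that did so was not counted, so nothing is read from these counts. With the replicate block the counts were 32 and 33, and of all genes 16.7% and 20.5% were called lower. No member's call changed at 48 h and CRR22 was added at 72 h, where pairing by number is uncertain. With the slide block the counts were 32 and 29, and of all genes 16.5% and 15.6% were called lower. PTAC6 was gained and PTAC10 lost at 48 h, and HCF152 was gained and PTAC3, PTAC6, PTAC10 and PTAC12 lost at 72 h. The deposited value table raised the median of all genes by 0.136, to 0.151, at 48 h and by 0.224, to 0.231, at 72 h, and 29 and 28 members were called lower under it. No called member changed sign under any alternative. Members at the level of the lowest probes above background, as CRR23, cannot show a fall.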
